A study of Mus musculus with 12 samples.

Results

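Macrophages are made and kept as macrophages by a small set of transcription factors, and they are recognised by a small set of genes those cells express. The 9 genes described here are 5 such factors (Spi1, Cebpa, Cebpb, Cebpd and Maf) and 4 such identity markers (Csf1r, Adgre1, Mertk and Lyz2). They were chosen as a list of symbols, matched to the count table through the GENCODE mouse annotation of GRCm38, and all 9 were found among its 48526 genes. The study sequenced total RNA of mouse BMDMs, that is, macrophages differentiated in culture from bone marrow cells over 6 d in L929-conditioned medium. The cells came from mice homozygous for a deletion of HSS9, an enhancer region upstream of the cytokine gene Tnf (KO), or from HSS9+/+ littermate controls (WT). They were treated with PBS (UT) or with LPS, the endotoxin of Gram-negative bacteria, for 6 hr. The 4 groups are called WT UT, WT LPS, KO UT and KO LPS here, and each held 3 libraries. The mice were male young adults and the wild type was C57BL/6 by the methods of the study. The labels do not say whether the libraries of a group came from separate animals, so p-values measure the spread between these libraries, which may be technical. The labels call the controls littermates, whereas by the methods of the study wild-type mice were purchased and the KO was bred as homozygous pairs, so the breeding of the mice and the deletion cannot be told apart.

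PU.1, the product of Spi1, is an ETS family factor that myeloid cells need in order to form, and it binds many macrophage enhancers. The C/EBP factors are basic leucine zipper proteins: C/EBP-alpha, from Cebpa, is known for its role in myeloid commitment, and C/EBP-beta and C/EBP-delta, from Cebpb and Cebpd, are known as factors induced in inflammation. c-Maf, from Maf, is a large MAF leucine zipper factor known for its role in differentiated macrophages and in Il10 expression. Csf1r encodes the receptor for the growth factor CSF1 (M-CSF), Adgre1 the surface protein F4/80, Mertk a receptor tyrosine kinase through which macrophages take up dying cells, and Lyz2 the lysozyme of myeloid cells.

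RefSeq promoter windows of GRCm38.p6, here the 250 bases before the annotated start, were at hand for 4 of the 9 genes (Cebpa, Cebpb, Mertk and Lyz2). The windows of Cebpa, Cebpb and Mertk are printed because Cebpa and Mertk fell steeply with LPS whereas Cebpb rose. All are on the plus strand and written 5′ to 3′, with capitals at matches to the strings searched. For PU.1 the string searched on both strands was GAGGAAG, whereas for the C/EBP factors it was TTGCNNAA. The core of the MAF response element was searched as TGCTGAC, and the TATA box of many promoters as TATAAA. The GC box known from promoters rich in CpG was searched as GGGCGG, and NF-kappaB and AP-1 by their consensus strings.
Cebpa, chr7:35119043-35119292: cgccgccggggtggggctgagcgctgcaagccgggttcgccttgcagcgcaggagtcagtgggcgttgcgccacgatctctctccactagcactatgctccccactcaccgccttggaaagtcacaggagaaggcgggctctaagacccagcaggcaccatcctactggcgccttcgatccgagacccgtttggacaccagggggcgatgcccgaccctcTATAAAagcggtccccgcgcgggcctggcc
Cebpb, chr2:167688665-167688914: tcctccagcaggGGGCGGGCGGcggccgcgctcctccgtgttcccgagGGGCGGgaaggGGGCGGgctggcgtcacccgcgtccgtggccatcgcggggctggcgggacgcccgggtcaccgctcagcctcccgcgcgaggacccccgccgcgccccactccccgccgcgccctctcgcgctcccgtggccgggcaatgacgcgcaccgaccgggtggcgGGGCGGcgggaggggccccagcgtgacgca
Mertk, chr2:128698665-128698914: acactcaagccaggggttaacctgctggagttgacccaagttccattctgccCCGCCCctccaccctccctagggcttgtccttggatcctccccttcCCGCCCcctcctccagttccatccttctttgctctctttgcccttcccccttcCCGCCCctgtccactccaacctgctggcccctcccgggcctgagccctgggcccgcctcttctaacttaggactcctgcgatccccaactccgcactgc
The Cebpa window held TATAAA once, from base -30 to base -25 counted from the start, and 22 CpG dinucleotides at 66.4% GC. The Cebpb window held GGGCGG 5 times, with 41 CpG dinucleotides at 81.6% GC, and 99.3% of promoters in the table had a lower GC content. The Mertk window held the GC box on the other strand 3 times, as CCGCCC, at 63.6% GC, and the Lyz2 window (chr10:117282273-117282522, minus strand) held none of the strings, with 1 CpG at 41.6% GC. That window ends inside the gene as GENCODE places it and is not printed. Over all 32841 promoter windows of this length the median GC content was 52.4%, TATAAA stood in 12.4% and GGGCGG in 32.7%. The PU.1, C/EBP, NF-kappaB, MAF and AP-1 strings, held by 10.6%, 9.57%, 1.41%, 3.81% and 6.75% of all windows, had no match in the 4 windows, which says only that these letters are not in these bases.

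In GRCm38 the genes lie on 7 chromosomes. Spi1 spans chr2:91082390-91115756 on the plus strand with 5 exons in its longest transcript, Cebpb chr2:167688915-167690418 (plus strand, 1 exon) and Mertk chr2:128698956-128802894 (plus strand, 19 exons). Cebpa lies at chr7:35119293-35121928 (plus strand, 1 exon), Maf at chr8:115682942-115707794 (minus strand, 1 exon in the longest transcript) and Lyz2 at chr10:117277331-117282321 (minus strand, 4 exons). Cebpd lies at chr16:15887286-15891031 (plus strand, 1 exon), Adgre1 at chr17:57358691-57483527 (plus strand, 22 exons) and Csf1r at chr18:61100598-61132149 (plus strand, 21 exons). Their Ensembl identifiers in the table are ENSMUSG00000002111.8 (Spi1), ENSMUSG00000034957.10 (Cebpa), ENSMUSG00000056501.3 (Cebpb), ENSMUSG00000071637.5 (Cebpd), ENSMUSG00000055435.6 (Maf), ENSMUSG00000024621.15 (Csf1r), ENSMUSG00000004730.14 (Adgre1), ENSMUSG00000014361.5 (Mertk) and ENSMUSG00000069516.7 (Lyz2). Exons of 5 of them overlap exons of a gene on the other strand: Gm45091 with Cebpa, Tmem189 with Cebpb, Spidr with Cebpd, Gm15655 with Maf and Hmgxb3 with Csf1r. Whether reads were counted by strand is not given, so the counts of these pairs are uncertain to the extent that they share reads. Gm45091 had 0 to 54 counts and Gm15655 0 to 7 counts in a library, whereas Tmem189 had 1744 to 4842, Hmgxb3 709 to 1359 and Spidr 522 to 840 counts. Cebpd itself had 617 to 843 counts in UT libraries, within reach of Spidr, and 2428 to 3341 after LPS, and Cebpb had 3955 to 4541 counts in UT libraries, within reach of Tmem189.

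Library totals ranged from 26154533 to 36423921 counts, and each of the 9 genes had at least 168 counts in every library, so all passed the filter on low counts. Expression values are CPM after TMM scaling, and FPKM (CPM per kilobase of exons) where levels of different genes are compared. TMM factors were 1.29 in WT UT and 1.15 to 1.18 in KO UT. After LPS they were 0.811 to 0.818 in WT and 0.813 to 0.822 in KO. Small changes with LPS and small genotype differences UT can therefore depend on this scaling. The labelled cell type held against its markers: of 28 further macrophage identity genes none was at 0 in a group, and their summed level was 32215 to 37113 CPM in a library. The defining genes of B cells summed to at most 1.91 CPM, of mast cells and basophils to at most 2.00 CPM and of dendritic cells to at most 11.5 CPM, neutrophil genes to 68.5 to 114 CPM (with 1 to 4 of 13 at 0 in a group), stromal genes to at most 33.2 CPM, and T and NK cell genes to at most 15.2 CPM. Of cells near the macrophage, osteoclast genes summed to 46.0 to 102 CPM. Progenitor genes, nearly all Ly6a, summed higher than the lists of other cells, to 149 to 972 CPM, as did monocyte genes, to 172 to 1580 CPM. Tnf, which has the deleted enhancer upstream of it, was lower in the KO in both treatments, at 9.10 to 10.5 CPM against 14.8 to 16.2 CPM UT and at 422 to 450 CPM against 826 to 938 CPM after LPS. The deleted region is not a gene of the table, so the deletion itself was not checked here. Small structured RNAs (snRNA, snoRNA and similar classes) took unequal shares of the counts, at 3.00% to 3.25% in WT UT, 6.64% to 7.98% in KO UT, 4.04% to 6.89% in WT LPS and 3.23% to 3.43% in KO LPS. Within each treatment these ranges did not overlap between the genotypes, so this share and the genotype cannot be told apart, and a fit with the share as a covariate takes from the genotype what the share could carry.

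The levels of the 9 genes differed widely. Lyz2 had the highest FPKM of 12231 protein-coding genes in all 4 groups, with a mean of 17821 ± 361 FPKM (SD, n = 3) in WT UT. Adgre1 and Csf1r followed, at 627 ± 11.9 and 424 ± 3.63 FPKM in WT UT, ranks 26 and 51. Among the factors, Cebpb led with 66.2 ± 2.29 FPKM, ahead of Spi1 with 45.4 ± 0.938, Cebpa with 21.6 ± 1.59, Maf with 16.6 ± 0.845 and Cebpd with 4.50 ± 0.430 FPKM, each in WT UT. Mertk was at 16.4 ± 0.834 FPKM, close to Maf. With the longest transcript in place of all exons as the length, Spi1 came to 60.1, Maf to 21.5 and Csf1r to 521 FPKM, beyond 1 SD of the first values, and the order of the 9 genes was the same, with Maf close to Cebpa at 21.7 FPKM.

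**Figure D1:**
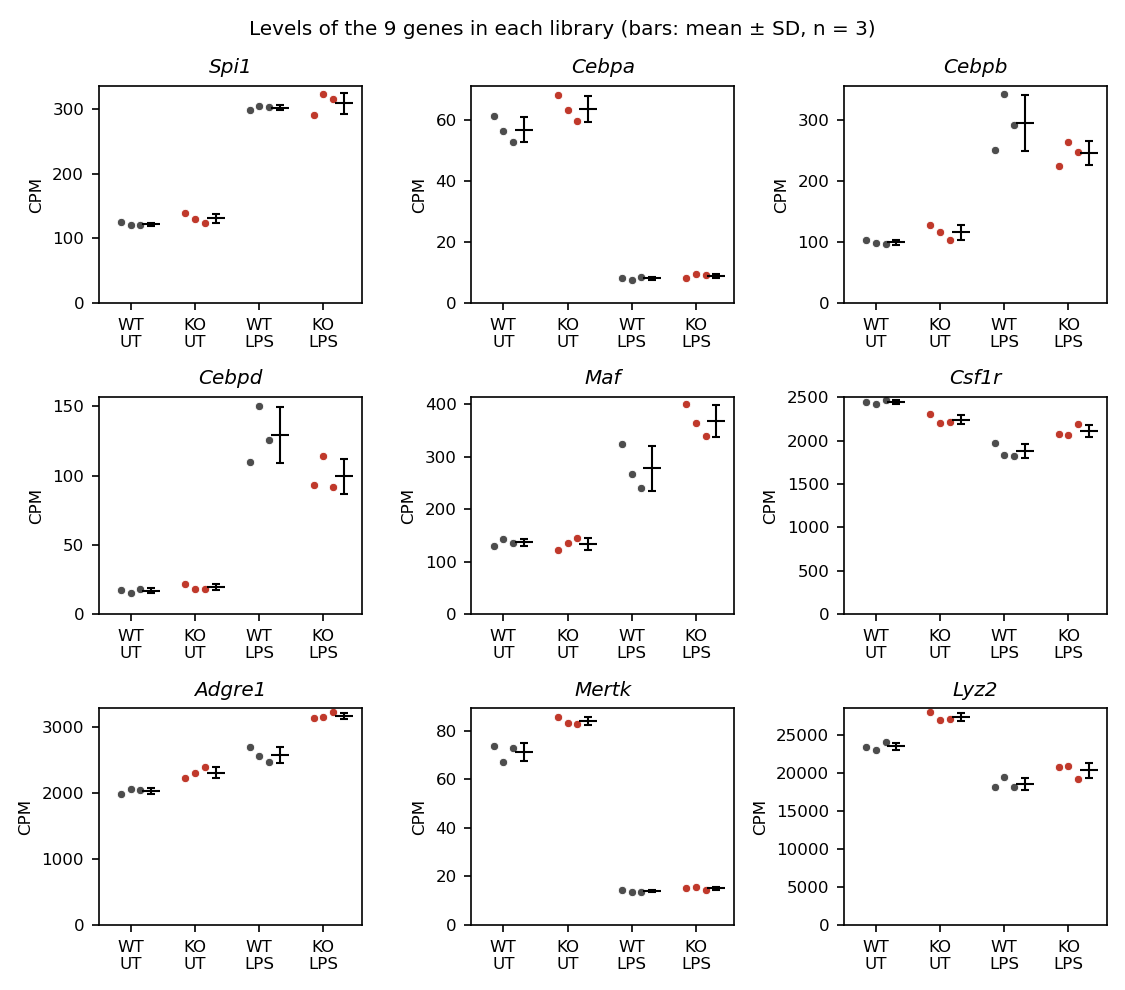
CPM of the 9 genes (vertical axes, each from 0) in every library of the 4 groups, WT in grey and KO in red, with bars for the mean ± SD of 3 libraries. Spi1, Cebpb, Cebpd and Maf stood higher and Cebpa and Mertk lower after LPS in both genotypes, while Csf1r, Adgre1 and Lyz2 moved less.

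The first comparison asked how LPS changed the factors and markers in each genotype. A gene passed the test at an edgeR quasi-likelihood adjusted p below 0.05 and was called when its absolute log2 fold change was also above 1. In WT all 9 genes passed, against 73.3% of the 15523 genes tested, 5 higher (background 38.0%) and 4 lower (background 35.3%). The UT and LPS libraries did not overlap for any of the 9 in WT (background 74.8%) or in KO (background 76.0%). Of the WT changes 6 were called, against 37.8% of all genes: Spi1, Cebpb, Cebpd and Maf rose and Cebpa and Mertk fell. In KO 8 of 9 passed (background 72.8%), 5 higher (background 35.1%) and 3 lower (background 37.7%), and these 6 genes were called there too (background 37.0%). A change of this kind was therefore common in the table, and among the 4590 genes with a mean level at or above that of Cebpa, the lowest of the members at 34.4 CPM, 86.8% passed in WT and 87.7% in KO. The median log2 fold change of the members was 0.34 in WT and 0.46 in KO, beside 0.05 and -0.06 over all genes.

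**Figure D2:**
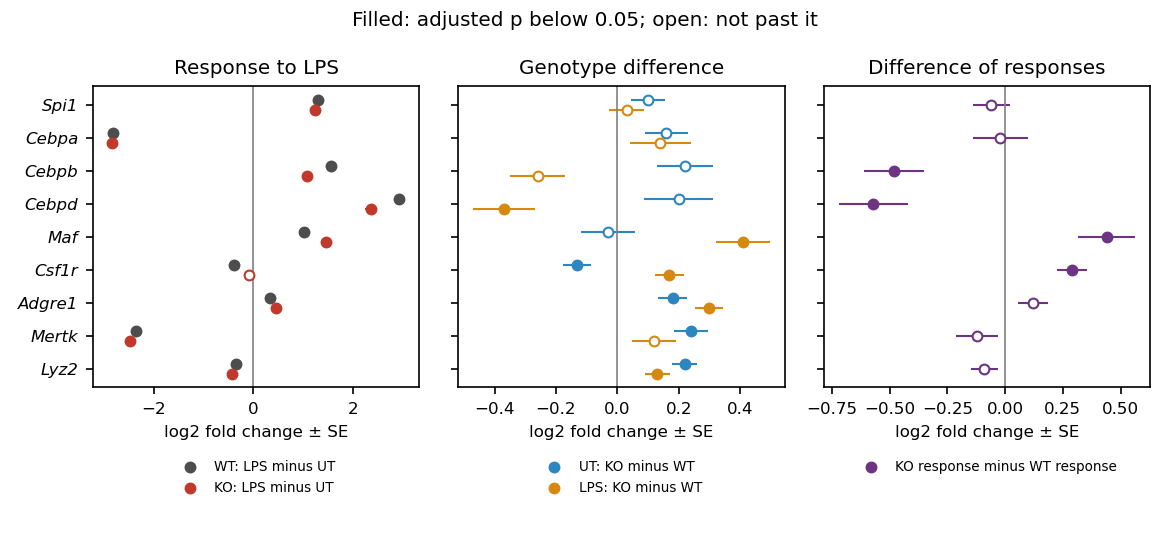
Log2 fold changes ± SE (horizontal axes) of the 9 genes for the response to LPS in each genotype, for KO minus WT in each treatment and for the difference of the 2 responses; filled points passed the adjusted p of 0.05 and open points did not. The LPS responses of Cebpa and Mertk lay at -2.35 or lower in both genotypes, and KO minus WT lay between -0.37 and 0.41.

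Spi1 rose with LPS and hardly differed between the genotypes. Its 3 libraries read 125, 121 and 121 CPM in WT UT, 139, 130 and 124 in KO UT, 298, 305 and 304 in WT LPS, and 291, 323 and 315 in KO LPS. The UT and LPS libraries did not overlap, whereas those of the genotypes did in both treatments. The log2 fold change with LPS was 1.31 ± 0.0571 (SE, n = 3, edgeR adjusted p = 6.14e-15) in WT and 1.24 ± 0.0571 (adjusted p = 1.47e-14) in KO. KO minus WT was 0.10 UT (95% interval -0.02 to 0.21, edgeR adjusted p = 0.245) and 0.03 after LPS (-0.08 to 0.15, adjusted p = 0.741), and the responses differed by -0.06 (-0.23 to 0.10). In the order of its 4 group levels, only KO UT and WT LPS differed among neighbours. Its relatives Spic, a factor of red pulp macrophages, rose from 1.46 to 15.6 CPM in WT (log2 fold change 3.42) and from 1.60 to 12.6 CPM in KO (2.97), and Spib had at most 12 counts in a library and was removed by the filter.

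The C/EBP genes split, with Cebpa falling while Cebpb and Cebpd rose. Cebpa read 61.3, 56.4 and 53.0 CPM in WT UT and 68.2, 63.2 and 59.8 in KO UT, and after LPS 8.16, 7.54 and 8.44 in WT and 8.05, 9.46 and 9.15 in KO. Every LPS library stood far below every UT library, while the genotypes overlapped. Within the 3 batches of the labels KO minus WT was 0.15 to 0.17 UT and -0.02 to 0.33 after LPS, on the log2 scale. Cebpa fell 7.07-fold in WT (log2 value -2.82 ± 0.0854, edgeR adjusted p = 8.09e-18) and 7.16-fold in KO (-2.84 ± 0.0830, adjusted p = 4.12e-18), a fall larger than that of all but 3.47% of genes in WT. KO minus WT was 0.16 UT (95% interval 0.02 to 0.31, adjusted p = 0.0959) and 0.14 after LPS (-0.06 to 0.35, adjusted p = 0.370), neither past the test, although the UT difference passed with the UT groups fitted alone (0.16, adjusted p = 0.0383) or without WT UT replicate 1 (0.22, adjusted p = 0.0470).

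Cebpb read 103, 98.6 and 96.6 CPM in WT UT and 128, 116 and 103 in KO UT. After LPS it read 252, 344 and 292 in WT and 225, 265 and 248 in KO. All LPS libraries were above all UT libraries, and WT LPS held the highest and most scattered values. The rise was 2.97-fold in WT (log2 value 1.57 ± 0.0930, edgeR adjusted p = 1.30e-12) and 2.13-fold in KO (1.09 ± 0.0922, adjusted p = 6.33e-10). The KO value was under the limit for a call with upper-quartile scaling (0.90). The response was smaller in KO (difference of the responses -0.48 ± 0.129 on the log2 scale, edgeR adjusted p = 0.0125), in the same direction within all 3 batches of the labels (-0.61 to -0.33). The genotypes did not differ past the test in either treatment alone, at 0.22 UT (adjusted p = 0.0935) and -0.26 after LPS (adjusted p = 0.0551). The former passed with the UT groups fitted alone (0.21, adjusted p = 0.00708), with no filter on low counts (0.22) and without KO UT replicate 3 (0.30, adjusted p = 0.0337). The latter passed under 5 other settings, among them DESeq2 (-0.26, adjusted p = 0.0477), and without WT LPS replicate 1 (-0.37, adjusted p = 9.15e-04). The interaction missed the threshold without KO UT replicate 1 (-0.40, adjusted p = 0.0507) or WT LPS replicate 2 (-0.36, adjusted p = 0.0553), and with the small RNA share as a covariate it was 0.16 (adjusted p = 0.851).

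Cebpd had the largest rise of the 9 genes. It read 17.6, 15.0 and 17.9 CPM in WT UT, 21.9, 18.1 and 18.1 in KO UT, 110, 150 and 126 in WT LPS and 93.1, 114 and 91.4 in KO LPS. The rise was 7.62-fold in WT (log2 fold change 2.93, 95% interval 2.70 to 3.16, edgeR adjusted p = 4.05e-16) and 5.13-fold in KO (2.36, interval 2.13 to 2.59, adjusted p = 1.82e-14), and the responses differed by -0.57 ± 0.151 (adjusted p = 0.0120). After LPS Cebpd was 1.29-fold lower in KO (log2 fold change -0.37, 95% interval -0.58 to -0.16, edgeR adjusted p = 0.0172), lower in all 3 batches, with an overlap of the KO value of 114 and the WT value of 110 CPM. In UT the 3 KO libraries lay above the WT libraries by a small margin, and the difference of 0.20 (95% interval -0.04 to 0.44) did not pass (adjusted p = 0.226). The lower level after LPS was no longer past the threshold without WT LPS replicate 2 (-0.24, adjusted p = 0.138), KO LPS replicate 1 (-0.32, adjusted p = 0.0864) or KO LPS replicate 3 (-0.31, adjusted p = 0.0935), and with the small RNA share as a covariate it was -0.20 (adjusted p = 0.356). The difference of the responses missed the threshold without KO UT replicate 1 (-0.47, adjusted p = 0.0556) and was -0.05 (adjusted p = 0.981) with that covariate.

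Set per length, the balance of the 3 C/EBP genes turned over. Cebpb stood at 3.07 ± 0.125 times the FPKM of Cebpa in WT UT (SD, n = 3) and 3.18 ± 0.140 times in KO UT, and after LPS at 64.9 ± 13.5 times in WT and 48.6 ± 0.839 times in KO. Cebpd went from 0.209 ± 0.0262 times Cebpa in WT UT to 11.3 ± 2.37 times in WT LPS, and from 0.214 ± 0.0125 to 7.88 ± 0.750 times in KO. Cebpa thus led Cebpd in UT cells and trailed both others after LPS. Cebpg, a partner of the other C/EBP proteins, fell slightly, with log2 fold changes of -0.39 in WT and -0.24 in KO, and Cebpe, the granulocyte member, had at most 12 counts in a library.

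**Figure D3:**
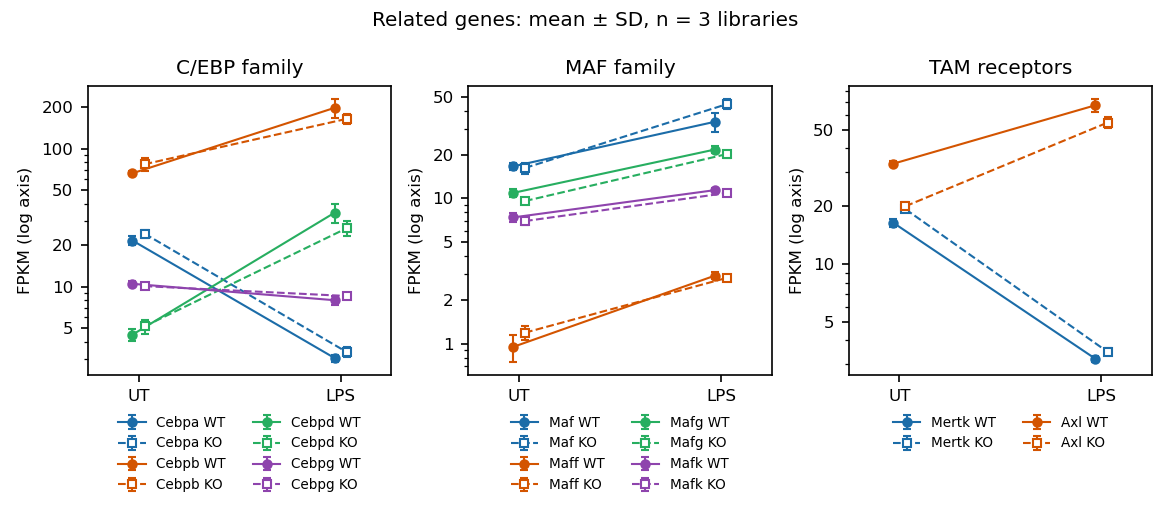
FPKM on log axes (mean ± SD, n = 3 libraries) in UT and LPS for the C/EBP genes, the MAF genes and the receptors Mertk and Axl, WT with filled symbols and solid lines and KO with open symbols and dashed lines. Cebpd and Cebpa exchanged their order with LPS in both genotypes, and Maff stood lowest of the 4 MAF genes shown.

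Maf rose with LPS, and more so in KO. It read 130, 144 and 136 CPM in WT UT and 122, 135 and 145 in KO UT, and 325, 267 and 241 in WT LPS and 400, 364 and 340 in KO LPS. The UT genotypes overlapped, and after LPS every KO library was above every WT library. The log2 fold change with LPS was 1.02 ± 0.0886 (edgeR adjusted p = 9.55e-10) in WT and 1.46 ± 0.0893 (adjusted p = 2.45e-12) in KO, so that WT stood just above the limit for a call. It fell under that limit without WT UT replicate 1 (0.98) or WT LPS replicate 1 (0.89), with upper-quartile scaling (0.83), and with DESeq2, RLE scaling, no filter on low counts or only the groups compared (0.97 each). In KO it was 0.85 with the small RNA share as a covariate. After LPS Maf was 1.32-fold higher in KO (log2 fold change 0.41 ± 0.0876, adjusted p = 0.00370), by 0.30 to 0.50 within the 3 batches, and past the threshold whichever library was left out (0.31 to 0.53). The UT difference was -0.03 (95% interval -0.22 to 0.15). The responses differed by 0.44 ± 0.124 (edgeR adjusted p = 0.0185), which missed the threshold without WT UT replicate 2, KO UT replicate 1, WT LPS replicate 2 or KO LPS replicate 1 (0.38 to 0.41). With the small RNA share as a covariate the order changed, to 0.11 after LPS (adjusted p = 0.476), 0.61 UT (adjusted p = 0.00439) and -0.50 for the responses (adjusted p = 0.216).

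The small MAF genes, whose products are partners of other leucine zipper factors and lack a transactivation domain, rose with LPS in both genotypes. Maff went from 2.46 to 7.64 CPM in WT (log2 fold change 1.63 ± 0.150) and from 3.09 to 7.37 CPM in KO (1.25 ± 0.149). Mafg went from 61.1 to 122 CPM in WT (1.00 ± 0.0635) and from 53.9 to 114 CPM in KO (1.08 ± 0.0641). Mafk rose least, from 28.8 to 44.3 CPM in WT and from 27.2 to 42.7 CPM in KO. Per length Maf, at 16.6 FPKM in WT UT, stood above Mafg at 10.9, Mafk at 7.39 and Maff at 0.948 FPKM.

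Csf1r fell with LPS in WT and differed between the genotypes in opposite directions in the 2 treatments. It read 2447, 2428 and 2470 CPM in WT UT, 2305, 2207 and 2215 in KO UT, 1972, 1838 and 1828 in WT LPS and 2072, 2063 and 2191 in KO LPS. The genotypes did not overlap in either treatment: KO was the lower one UT and the higher one after LPS. With LPS Csf1r fell by 0.38 in log2 units in WT (SE 0.0458, edgeR adjusted p = 1.67e-07), whereas the value in KO was -0.09 (95% interval -0.18 to 0.01, adjusted p = 0.0875), and passed with upper-quartile scaling (-0.27, adjusted p = 4.71e-06), without KO LPS replicate 3 (-0.12, adjusted p = 0.0404) and with the small RNA share as a covariate (-0.20, adjusted p = 0.0403). The difference of the responses was 0.29 ± 0.0647 (edgeR adjusted p = 0.00328) and stayed past the threshold whichever library was left out (0.26 to 0.33), but was 0.12 (adjusted p = 0.734) with the small RNA share as a covariate.

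The genotype differences behind it were small. KO minus WT after LPS was 0.17 ± 0.0458 for Csf1r (edgeR adjusted p = 0.0192), and it missed the threshold without WT LPS replicate 2 (0.15, adjusted p = 0.0707) or KO LPS replicate 3 (0.14, adjusted p = 0.0879), with the LPS groups fitted alone (0.16, adjusted p = 0.0697) and with the covariate (0.11, adjusted p = 0.167). In UT it was -0.13 ± 0.0457 (edgeR adjusted p = 0.0491), close to the threshold, which it missed when any 1 of the 6 UT libraries was left out (-0.15 to -0.11, adjusted p 0.0568 to 0.166) and with the batch number as a replicate block (-0.13, adjusted p = 0.0812). In the order of the 4 groups, KO UT and KO LPS were the neighbours that did not differ past the test. The granulocyte receptor gene Csf3r rose with LPS, from 71.5 to 259 CPM in WT and from 64.3 to 268 in KO. Kit, a relative of Csf1r and a gene of progenitor and mast cells, had group means of 3.17 CPM or less.

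Adgre1, the F4/80 gene, rose with LPS after TMM scaling and was higher in KO in both treatments. It read 1987, 2059 and 2047 CPM in WT UT, 2233, 2299 and 2392 in KO UT, 2702, 2556 and 2465 in WT LPS and 3131, 3150 and 3227 in KO LPS. No 2 of the 4 groups overlapped in CPM, and all neighbours in the order differed past the test. As a share of all counts, before TMM scaling, Adgre1 was at 0.256% to 0.266% in WT UT and 0.200% to 0.221% in WT LPS. In KO this share was 0.258% to 0.281% UT and 0.257% to 0.262% after LPS. The rise with LPS and the gap between the UT genotypes thus rest on the scaling. With LPS the log2 fold change was 0.34 ± 0.0459 (edgeR adjusted p = 8.35e-07) in WT and 0.46 ± 0.0459 (adjusted p = 1.06e-08) in KO. KO was 1.23-fold higher after LPS (log2 fold change 0.30 ± 0.0459, adjusted p = 1.51e-04), past the threshold under every setting run (0.19 to 0.34). In UT KO was higher by 0.18 ± 0.0459 (edgeR adjusted p = 0.00488), but under RLE scaling this was 0.11 (adjusted p = 0.0749) and with DESeq2 0.11 (adjusted p = 0.0588). The difference of the responses of 0.12 (95% interval -0.02 to 0.25) did not pass (edgeR adjusted p = 0.251), but did under RLE scaling (0.20, adjusted p = 0.0378), with DESeq2 (0.20, adjusted p = 0.0189) and without WT LPS replicate 1 (0.15, adjusted p = 0.0378).

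The other adhesion receptors of its family fell. Adgre5, which encodes CD97, fell from 185 to 24.6 CPM in WT and from 124 to 14.1 CPM in KO, and was lower in KO UT (log2 fold change -0.58 ± 0.0560, edgeR adjusted p = 2.34e-07) and after LPS (-0.80 ± 0.0696, adjusted p = 1.13e-07). Adgre4 fell from 38.2 to 16.4 CPM in WT and from 24.8 to 13.5 in KO, and was lower in KO UT (-0.62 ± 0.0981, adjusted p = 6.26e-05), a direction that turned with the small RNA share as a covariate (0.17). Both thus stood on the other side of the genotype comparison from Adgre1 in UT cells.

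Mertk fell steeply with LPS. It read 73.6, 67.0 and 73.0 CPM in WT UT and 85.8, 83.1 and 82.7 in KO UT, and 14.4, 13.6 and 13.8 in WT LPS and 15.3, 15.7 and 14.5 in KO LPS. The fall was 5.11-fold in WT (log2 value -2.35 ± 0.0650, edgeR adjusted p = 1.59e-18) and 5.54-fold in KO (-2.47 ± 0.0638, adjusted p = 4.54e-19). UT libraries of KO all lay above those of WT, by 0.24 ± 0.0557 (edgeR adjusted p = 0.00321), and with the small RNA share as a covariate the value was 0.23 with a wider error (adjusted p = 0.491). After LPS the KO libraries also lay above those of WT, but the difference of 0.12 (95% interval -0.03 to 0.27) did not pass (edgeR adjusted p = 0.295). The difference of the responses was -0.12 (-0.31 to 0.07).

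Axl, the TAM receptor of inflamed macrophages, rose while Mertk fell. It went from 168 to 338 CPM in WT (log2 fold change 1.01 ± 0.0654) and from 101 to 274 CPM in KO (1.45 ± 0.0665). Axl was lower in KO UT (log2 fold change -0.74 ± 0.0656, edgeR adjusted p = 7.38e-08) and after LPS (-0.30 ± 0.0648, adjusted p = 0.00370), and the responses differed by 0.44 ± 0.0920 (adjusted p = 0.00227), which was lost with the small RNA share as a covariate. Per length Axl was 2.03 ± 0.135 times Mertk in WT UT and 1.03 ± 0.0416 times in KO UT, and 20.9 ± 1.19 and 15.6 ± 1.71 times after LPS. The third receptor, Tyro3, had at most 20 counts in a library and was removed by the filter.

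Lyz2 was the most abundant of the 9 genes and was higher in KO. It read 23359, 23032 and 23968 CPM in WT UT, 27976, 26956 and 27092 in KO UT, 18079, 19371 and 18070 in WT LPS and 20752, 20920 and 19198 in KO LPS. The genotypes were apart in UT and overlapped after LPS through the highest WT and the lowest KO library. With LPS Lyz2 fell by 0.34 in log2 units in WT (SE 0.0411, edgeR adjusted p = 1.70e-07) and by 0.43 in KO (SE 0.0412, adjusted p = 4.79e-09). KO was higher by 0.22 ± 0.0411 UT (edgeR adjusted p = 3.59e-04) and by 0.13 ± 0.0411 after LPS (adjusted p = 0.0351). The latter missed the threshold under 5 other settings, among them the replicate block (0.13, adjusted p = 0.0683), and protein-coding genes only (0.10, adjusted p = 0.147), and without WT LPS replicate 3, KO LPS replicate 1 or KO LPS replicate 2 (0.11 to 0.12). The UT value was 0.20 (adjusted p = 0.109) with the small RNA share as a covariate. Lyz1, the near-identical lysozyme gene of Paneth cells, had 153 to 490 counts and 4.02e-04 times the FPKM of Lyz2 in WT UT, and reads shared between the 2 genes make its value uncertain.

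By the order of the group levels the 9 genes fell into a few patterns. Spi1 and Adgre1 ran upward from WT UT over KO UT and WT LPS to KO LPS, and KO UT differed from WT LPS past the test for both (background 73.8%). Cebpb and Cebpd had the same UT groups at the bottom but WT LPS at the top, above KO LPS, which for Cebpb was no difference past the test. Cebpa, Mertk and Lyz2 ran upward from WT LPS over KO LPS and WT UT to KO UT, and KO LPS differed from WT UT past the test for all 3 (background 72.6%). The neighbours that did not differ past the test were the genotypes within a treatment for Spi1, Cebpa and Cebpb, the UT groups for Cebpd and Maf, the LPS groups for Mertk, and KO UT and KO LPS for Csf1r.

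The second comparison asked how far the KO differed from WT in these genes. After LPS 5 of 9 passed, against 14.3% of all genes and 26.4% of the 4590 genes at least as abundant: Maf, Csf1r, Adgre1 and Lyz2 were higher (4, background 7.78%) and Cebpd was lower (1, background 6.54%). In UT 4 passed, against 23.8% of all genes and 41.8% of those at least as abundant, with Adgre1, Mertk and Lyz2 higher (background 14.1%) and Csf1r lower (background 9.69%). For the difference of the responses 4 passed, against 16.8% and 33.4%: Maf and Csf1r higher (background 7.32%) and Cebpb and Cebpd lower (background 9.50%). None of the 9 genes was called in these 3 comparisons, since none reached a log2 fold change of 1, against 1.25%, 1.82% and 2.16% of all genes. At an unadjusted edgeR p below 0.05 there were 6 after LPS, 6 UT and 4 for the responses, against 28.5%, 34.3% and 29.1% of all genes, and DESeq2 also called 0. The libraries of the genotypes did not overlap for 4 members after LPS and for 5 UT, against 29.1% and 40.8% of all genes. The share in the UT comparison, 4 of 9, was near that of genes as abundant. Median log2 fold changes of the members were 0.13 after LPS and 0.18 UT, beside -0.01 and 0.00 over all genes.

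These counts moved with single libraries, with the scaling and with the small RNA share. In UT 3 members passed with RLE scaling and with DESeq2, where 4469 and 4546 of all genes passed. After LPS 3 members passed without WT LPS replicate 2, KO LPS replicate 1 or KO LPS replicate 3. For the responses 1 passed without KO UT replicate 1 and 2 without WT LPS replicate 2. With the small RNA share as a covariate 2 passed after LPS (Adgre1 and Lyz2), 2 UT (Adgre1 and Maf) and 0 for the responses. Over the whole table that covariate left 1358, 860 and 187 of the 15523 genes past the threshold, in place of 2223, 3700 and 2611. Summed markers of other cells also stood apart between the genotypes, with no overlap of the libraries: monocyte genes summed to 225 to 248 CPM in WT UT and 172 to 190 in KO UT, and to 1406 to 1580 and 1164 to 1332 after LPS. Most of these sums was 1 gene, Ccr2 UT (199 CPM in WT) and Vcan after LPS (1395 CPM in WT), and the 6 genes of the list did not move together. After LPS 3 passed as higher in KO and 1, Vcan, as lower (background 7.78% and 6.54%), with a median log2 fold change of 0.42. In UT 2 were higher and 2 lower (background 14.1% and 9.69%), with a median of 0.24. Osteoclast genes summed to 46.0 to 48.4 and 62.3 to 66.6 CPM UT and to 72.1 to 81.1 and 96.4 to 102 after LPS, with 2 and 3 of the 6 tested genes past the test as higher (background 14.1% and 7.78%). The progenitor list, nearly all of it Ly6a, was lower in KO, at 149 to 185 against 338 to 349 CPM UT and 563 to 660 against 816 to 972 CPM after LPS. Neutrophil genes summed to 68.5 to 72.9 CPM in WT UT and 82.2 to 84.1 in KO UT and overlapped after LPS. Of the 8 neutrophil genes tested, 5 were called higher and 1 passed as lower in KO UT. Of all genes 1.82% were called UT in either direction and 9.69% passed as lower. Among those called, S100a9 (1.21 ± 0.113, edgeR adjusted p = 1.49e-07) and S100a8 (1.16 ± 0.134, adjusted p = 2.28e-06), both named after their values were seen, encode calprotectin. After LPS 1 of the 8 passed as higher (background 7.78%) and 0 were called. The stromal list was higher in KO at low sums, at 6.26 to 8.07 against 5.54 to 6.02 CPM UT and 30.7 to 33.2 against 27.1 to 29.7 CPM after LPS. There 4 of its 8 tested genes were called higher, where 1.25% of all genes were called in either direction. The mast cell and basophil list was higher in KO as well, at 1.85 to 2.00 against 0.463 to 0.766 CPM UT and 1.19 to 1.76 against 0.410 to 0.763 CPM after LPS, and the T and NK cell list after LPS, at 13.6 to 15.2 against 12.2 to 13.2 CPM. After LPS 0 of the 2 tested genes of the former list and 0 of the 3 of the latter passed, and UT 1 of the 2 did (background 23.8%). The dendritic and B cell lists overlapped in both treatments. The part of these markers in the differences of the members was not tested, and in bulk RNA fewer cells of a type and less RNA per cell cannot be told apart.

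**Figure D4:**
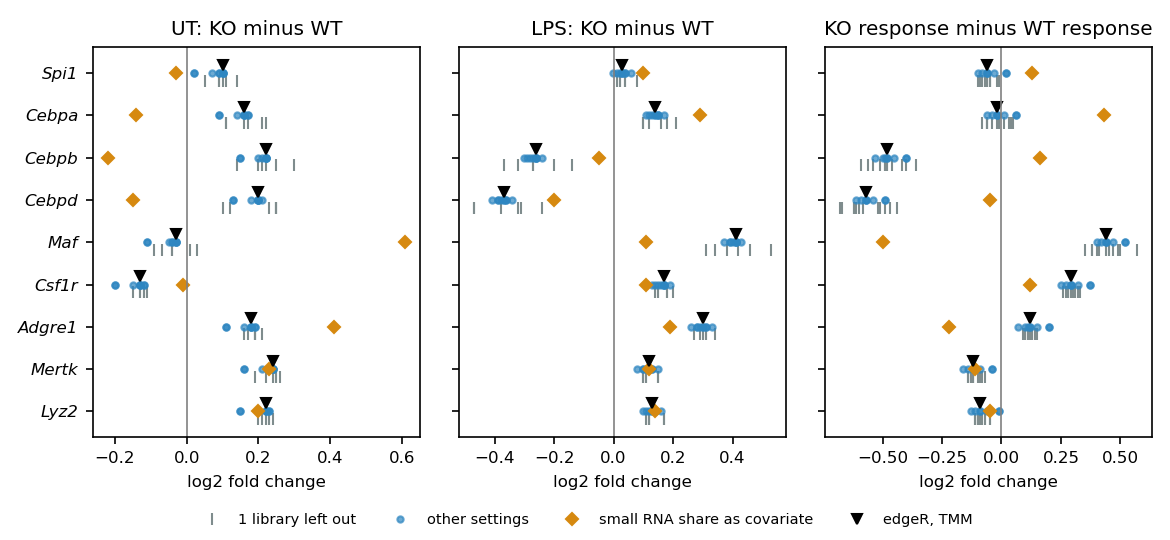
Log2 fold changes (horizontal axes) of the 9 genes for KO minus WT in UT, KO minus WT after LPS and the difference of the responses, as fitted by edgeR with TMM scaling (triangles), with 1 library left out (ticks), under other settings (circles) and with the small RNA share as a covariate (diamonds). Most values lay close to the triangle, whereas the diamonds of 5 genes lay on the other side of 0 UT (Spi1, Cebpa, Cebpb, Cebpd and Maf) and those of 5 in the last panel (Spi1, Cebpa, Cebpb, Maf and Adgre1).

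Other genes around the members were counted on lists of their pathways. The backgrounds beside these counts are over all genes tested, and larger shares of the abundant genes passed, as given above for the members. Of 30 further lineage factors tested, LPS raised 13 and lowered 15 in WT (background 38.0% and 35.3%) and raised 13 and lowered 14 in KO (background 35.1% and 37.7%). The repressor gene Gfi1, at 4 to 7 counts in a WT UT library and 0 to 4 in a KO UT library, rose to 348 to 443 counts in WT LPS and 293 to 353 in KO LPS, and the AP-1 family factor gene Batf rose next (5.11 in WT, 4.29 in KO). Klf4, a factor of monocyte differentiation (-3.04 and -2.77), and Pparg, a lipid-sensing nuclear receptor (-2.92 and -2.89), fell most among those with a mean of at least 5 CPM. Between the genotypes 5 were higher and 6 lower after LPS (background 7.78% and 6.54%), and 5 higher and 5 lower UT (background 14.1% and 9.69%), with medians of -0.01 and -0.10. After LPS the split was 9 higher and 5 lower without WT LPS replicate 1, 3 and 5 without WT LPS replicate 3, 4 and 4 without WT LPS replicate 2 or KO LPS replicate 2, 2 and 4 without KO LPS replicate 3, and 2 and 6 with the small RNA share as a covariate. Id2, an inhibitor of helix-loop-helix factors, was higher in KO after LPS (0.49 ± 0.0622, edgeR adjusted p = 2.11e-05), and Bhlhe40 was lower after LPS (-0.67) and UT (-0.46), where it was 0.01 with that covariate. The UT split of this list was 5 higher and 12 lower with RLE scaling, 5 and 3 without WT UT replicate 3 or KO UT replicate 1, and 1 and 0 with the covariate.

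Of 25 genes around the CSF1 receptor, LPS raised 13 and lowered 8 in WT (background 38.0% and 35.3%) and raised 15 and lowered 9 in KO (background 35.1% and 37.7%). The list runs from its ligands to the kinases below it, and also holds genes of other receptors, such as Csf2ra and Trem2. The ligand gene Csf1 rose from 3.83 to 28.2 CPM in WT and from 3.28 to 24.0 CPM in KO. After LPS 6 of the 25 were higher and 1 lower in KO (background 7.78% and 6.54%), 9 and 2 without WT LPS replicate 1, 3 and 0 without WT LPS replicate 2 or 3 or KO LPS replicate 1 or 3, and 3 and 1 with the small RNA share as a covariate. In UT 2 were higher (background 14.1%) and 10 lower (background 9.69%) in KO, with 5 lower without WT UT replicate 2 or KO UT replicate 1 and 1 lower with that covariate. The 2 higher genes were Tyrobp, which encodes the adaptor DAP12 (0.74 ± 0.102, edgeR adjusted p = 1.51e-05), and Trem2, which encodes a receptor that signals through it (0.59 ± 0.0669, adjusted p = 1.81e-06). With that covariate neither was past the threshold, at -0.23 for Tyrobp and 0.17 for Trem2. The responses differed in 14 of the 25 (background 16.8%), with 11 higher in KO (background 7.32%), Fgr foremost (0.75 ± 0.0822), and 3 lower (background 9.50%). With that covariate 1 of them passed.

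Of 20 efferocytosis and TAM pathway genes tested, which range from receptors and bridging ligands for dying cells to nuclear receptors, a cholesterol exporter and SOCS genes, LPS lowered 14 and raised 6 in WT (background 35.3% and 38.0%) and lowered 12 and raised 6 in KO (background 37.7% and 35.1%). The bridging ligand gene Gas6 fell from 181 to 42.0 CPM in WT and from 280 to 54.0 in KO, and the nuclear receptor gene Rxra from 42.2 to 6.88 and from 39.8 to 10.6 CPM. Socs3 and Socs1, feedback inhibitors of cytokine signalling, rose most (log2 fold changes of 7.24 and 6.37 in WT and 7.34 and 5.71 in KO). Between the genotypes 7 were higher and 2 lower in KO after LPS (background 7.78% and 6.54%), and 3 higher and 1 lower UT, where the background of 14.1% and 9.69% is close to these counts out of 20. The UT split was 3 higher and 4 lower with RLE scaling and with DESeq2, and 4 higher and 0 lower passed after LPS with the small RNA share as a covariate. The scavenger receptor gene Cd36 was higher in KO in both treatments, at 264 to 288 CPM in WT UT against 407 to 467 in KO UT (0.66 ± 0.0634, edgeR adjusted p = 2.25e-07) and at 210 to 247 against 395 to 406 CPM after LPS (0.81 ± 0.0640, adjusted p = 3.12e-08).

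Of 27 further identity markers tested, 13 were higher and 1 lower in KO after LPS (background 7.78% and 6.54%) and 13 higher and 5 lower UT (background 14.1% and 9.69%), with medians of 0.17 and 0.21, near the members' 0.13 and 0.18. After LPS 4 were lower with protein-coding genes only and without WT LPS replicate 1, and 2 without WT UT replicate 1 or WT LPS replicate 3, and UT 7 were higher and 2 lower with the small RNA share as a covariate. Mrc1, the mannose receptor gene CD206, was higher in KO in both treatments, at 111 to 113 CPM in WT UT against 180 to 194 in KO UT (0.74 ± 0.0542, edgeR adjusted p = 3.93e-09) and at 41.0 to 44.0 against 74.7 to 81.2 CPM after LPS (0.85 ± 0.0580, adjusted p = 3.33e-09). Cx3cr1, the fractalkine receptor gene, was lower in KO UT (-0.73 ± 0.0554, edgeR adjusted p = 6.66e-09), at 50.9 to 53.7 against 83.5 to 90.9 CPM. After LPS it was higher in KO (0.32 ± 0.0573, adjusted p = 7.17e-04), at 66.5 to 70.5 against 53.1 to 58.0 CPM, and the responses differed by 1.05 ± 0.0797 (edgeR adjusted p = 3.00e-08), and it was the 1 gene of the list called there. LPS raised 11 and lowered 13 of the list in WT (background 38.0% and 35.3%), with the scavenger receptor genes Marco and Msr1 rising most (6.07 and 3.45) and Pla2g15 and Cd5l falling most (-2.73 and -1.45).

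The genes most like each member over the 12 libraries were named by Pearson r of log2 CPM among 9084 protein-coding genes with a mean of at least 5 CPM. They were Ctu1 and Cnppd1 for Spi1, Arl11 and Rnf150 for Cebpa, Apba3 and Slc27a4 for Cebpb, Acaa1a and Cacng8 for Cebpd, Rap1b and Actr3 for Maf, and Vsir and Adssl1 for Mertk, each with r of 0.9925 or more. Such likeness was common, since all these libraries share the split by LPS: 2072 genes had r above 0.95 with Spi1 and 1691 with Cebpa. Csf1r had 29 such genes, led by Atf6 (r = 0.982) and Il6ra (0.977), and Adgre1 had 71, led by Cysltr1 (0.987) and Clptm1l (0.986). Lyz2 was most like Rpl3 (0.994) and Hmgn1 (0.9885), with 197 genes above 0.95. By Spearman rank correlation 1 of the 2 genes named stayed the same for Cebpa and for Cebpd, and none for the other members.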

How the data were processed

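Stranded total RNA libraries (TruSeq Stranded Total RNA Globin) of 12 BMDM cultures were sequenced. The deposited values are read counts per gene, which the authors made with FastQC 0.11.9, HISAT2 2.1.0, SAMtools 1.17 and featureCounts 2.0.0 on GRCm38 per the labels. Which annotation was used, and how strand and multiply matched reads were handled, is not given in the sources used here.

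Of 48526 gene identifiers, 48144 were named through GENCODE mouse release 21. The 382 others held 0.122% of counts. Library totals were 26154533 to 36423921 counts. Genes were filtered with filterByExpr (minimum count 10, minimum total 15), which kept 15523 genes. edgeR 4.0.16 (limma 3.58.1, R 4.3.3) with TMM scaling fitted 1 quasi-likelihood model of the 4 group means, with Benjamini-Hochberg adjustment over all genes tested. CPM and FPKM were computed here from the counts and the summed exon length. Intervals are 95% intervals of that fit. Figures were drawn with Python 3.11.15 and matplotlib 3.10.9. The script was tested on simulated data with known changes.

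The members and the pathway and marker lists were chosen with earlier results of these data known. Among the lists, the 2 genes with the largest change in each direction past the threshold and at a mean of 5 CPM or more were named per comparison, and all relatives of the members could be named. Values of 2 genes of the lists are not reported here, though the counts over the lists include them. Each library has a batch number in its labels, equal to its replicate number, which pairs the libraries of a batch. Deviations of the 18 same-numbered pairs correlated with r from -0.0631 to 0.0373, and 0 pairs were over 0.1. Replicates of a group differed beyond counting noise, with a lowest chi-square per degree of freedom of 3.73 over 12 pairs. The alternatives were DESeq2 1.42.0, RLE and upper-quartile scaling, other filters, a replicate block, protein-coding genes only, a small RNA covariate, only the groups compared, no fold change minimum, and leaving out each library.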

Additional observations from a re-analysis of the deposited data

Results flagged for a closer look

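The difference between the KO and the WT response to LPS was looked up for the members, the relatives reported, Tnf and the pathway list genes named for this comparison. It passed the edgeR quasi-likelihood test for 21 of these genes, 11 with a higher and 10 with a lower KO response. Among the members these were Cebpb at -0.48 (adjusted p = 0.0125), Cebpd at -0.57 (0.0120), Maf at 0.44 (0.0185) and Csf1r at 0.29 (0.00328), all on the log2 scale. Among their relatives it was Axl at 0.44 (0.00227), and Tnf stood at -0.38 (0.00763).

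Among further lineage factors they were Klf6 at 0.37 (edgeR adjusted p = 0.00328), Mef2a at 0.35 (0.0247), Batf at -0.81 (1.40e-04) and Nr4a1 at -0.68 (4.99e-05). Around the CSF1 receptor they were Fgr at 0.75 (4.78e-06), Adam10 at 0.63 (9.55e-04), Tyrobp at -0.80 (5.97e-04) and Trem2 at -0.55 (3.76e-04). In the efferocytosis list they were Rxra at 0.69 (0.00104), Pros1 at 0.33 (0.0479) and Gas6 at -0.27 (0.0192). Among identity markers they were Cx3cr1 at 1.05 (3.00e-08), Msr1 at 0.55 (6.04e-05), Ms4a7 at -0.59 (1.87e-04) and Cd14 at -0.53 (3.73e-05). Outside this count, marker genes of other cells named above also passed. They were Vcan at 1.46 (edgeR adjusted p = 1.06e-08), Ccr2 at 0.94 (9.34e-06), Ly6a at 0.48 (0.00414) and S100a8 at -1.05 (3.28e-04).

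Of all genes tested 16.8% passed for this difference. The small RNA share differed between the groups as well, with KO UT and WT LPS at the higher values, and its part in these differences was not tested beyond the fit with the share as a covariate, in which the 4 members did not pass.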

How the results depend on the processing

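Over the 9 members and 5 comparisons, 390 of 436 values under other settings kept their direction and side of the threshold, 18 lost and 12 gained the threshold and 16 changed sign. With 1 library left out, 292 of 324 kept both, 21 lost and 5 gained the threshold and 6 changed sign. Of the 1073 values of other named genes, 34 lost the threshold and 13 changed sign, and of their 756 values with 1 library left out 49 lost it and 0 changed sign.

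With no fold change minimum, the called members were 5 after LPS, 4 UT and 4 for the responses, in place of 0. With the small RNA share as a covariate, 2, 2 and 0 members passed, and with only the 2 groups compared fitted 3 passed after LPS and 6 UT, in place of 5 and 4. Leaving out 1 library gave 3 to 6 members past the threshold after LPS, 3 to 4 UT, 1 to 5 for the responses, 9 to 9 for the WT response and 8 to 9 for the KO response.

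Members that changed sign under the covariate were Spi1 (-0.03), Cebpa (-0.14), Cebpb (-0.22), Cebpd (-0.15) and Maf (0.61) UT, and Spi1 (0.13), Cebpa (0.43), Cebpb (0.16), Maf (-0.50) and Adgre1 (-0.22) for the responses. Of other genes they were, UT, Nr4a3 (0.30), Bhlhe40 (0.01), Tyrobp (-0.23), Adam10 (0.34) and Adgre4 (0.17). For the responses they were Klf6 (-0.10), Mef2a (-0.49), Adam10 (-0.34), Tyrobp (0.67), Trem2 (0.07), Pros1 (-0.33), Ms4a7 (0.10) and Tnf (0.04). The cause was not tested.

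Small values also changed sign: Spi1 after LPS with protein-coding genes only (-0.0017), Spi1 (0.02 and 0.02) and Cebpa (0.06 and 0.06) for the responses with DESeq2 and RLE scaling, and Cebpa with no filter (0.01). Without 1 library, Maf UT ranged from -0.09 to 0.03, with 0.01 among them, and the difference of the responses of Cebpa from -0.08 to 0.05, with 0.01, 0.03 and 0.04 among them. With the replicate block Csf1r UT (-0.13) and Lyz2 after LPS (0.13) lost the threshold, and the block changed no other call of a member.

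Upper-quartile scaling moved the median of all genes to -0.14 for the WT response and -0.24 for the KO response, from 0.05 and -0.06. Without the 10 most-counted genes, Lyz2 had no value.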
